A study of Homo sapiens with 10 samples.

Results

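DUX4, FRG1, FRG2, FRG2B and FRG2C are the 5 genes that lie in or beside the D4Z4 macrosatellite arrays and their relatives at 4q35, 10q26 and 3p12. They were chosen by name, by a rule that uses no measured value, from 19884 protein-coding genes placed on chromosomes 1 to 22, X and Y. Earlier results of these data were known when the choice was made. The values below come from H3K9me3 CUT&RUN of BJ cells, a human foreskin fibroblast line, in which an antibody-tethered micrococcal nuclease releases DNA around the marked nucleosomes. The cells had received siRNA against ERH (siERH) at 5 nM in 2 rounds 3 days apart, and the 3 samples of this group were pooled by the authors into 1 list of 10536 regions. The other groups of the study were H3K9me3 in 3 samples with non-targeting siRNA (siControl) and SOX2 in 2 siControl and 2 siERH samples, taken 48 hours after Sendai virus delivered OCT4, SOX2, KLF4 and c-MYC. They were not analysed here, so no value below compares knockdown with control. All groups carry an siRNA, the knockdown is transient, and the remaining ERH was not measured in these data.

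D4Z4 is a tandem repeat whose units each carry a copy of the DUX4 open reading frame. DUX4 is a homeobox transcription factor of the early embryo that is silent in most adult cells, where the repeats are packed with DNA methylation and H3K9me3. Contraction of the 4q35 array, or loss of the repressor SMCHD1, relaxes that packing, and DUX4 in muscle then causes facioscapulohumeral muscular dystrophy. The FRG genes are named after this disease region: FRG1 encodes a nuclear protein linked to RNA processing, and FRG2 and its near copies FRG2B and FRG2C encode nuclear proteins of unknown function. ERH is a small conserved nuclear protein that has been linked to H3K9me3 heterochromatin.

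The starts of the 3 FRG2 genes are shown before the values because they are close copies of each other. Each line gives the 300 bases from 250 before to 50 after the annotated start, from RefSeq on GRCh38.p14, on the strand of the gene. These are chr4:190027207-190027506 (minus strand) for FRG2, chr10:133626746-133627045 (minus) for FRG2B and chr3:75664078-75664377 (plus) for FRG2C. Capitals mark the bases that differ from FRG2.
FRG2: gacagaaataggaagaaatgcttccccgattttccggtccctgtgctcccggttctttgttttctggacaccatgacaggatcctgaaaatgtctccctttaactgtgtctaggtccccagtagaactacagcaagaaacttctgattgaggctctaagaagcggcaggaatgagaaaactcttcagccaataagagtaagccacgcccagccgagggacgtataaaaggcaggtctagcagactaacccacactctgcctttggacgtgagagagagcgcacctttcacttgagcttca
FRG2B: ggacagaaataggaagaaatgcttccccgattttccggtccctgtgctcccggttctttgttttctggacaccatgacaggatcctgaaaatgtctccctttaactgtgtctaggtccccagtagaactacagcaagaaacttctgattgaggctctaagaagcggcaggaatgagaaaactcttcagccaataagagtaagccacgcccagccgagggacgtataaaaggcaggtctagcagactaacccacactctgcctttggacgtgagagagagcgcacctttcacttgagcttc
FRG2C: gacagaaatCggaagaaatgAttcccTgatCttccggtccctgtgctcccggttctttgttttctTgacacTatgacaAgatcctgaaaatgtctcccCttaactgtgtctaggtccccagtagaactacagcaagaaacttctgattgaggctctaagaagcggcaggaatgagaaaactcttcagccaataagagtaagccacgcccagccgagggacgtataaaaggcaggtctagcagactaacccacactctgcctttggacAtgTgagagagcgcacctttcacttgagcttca
FRG2 and FRG2B were identical over the 299 bases that their windows share, the windows being offset by 1 base. FRG2C differed from FRG2 by 10 substitutions (96.7% identity), of which 8 lay in the first 100 bases. All 3 windows hold the motifs TATAAAA and CCAAT, searched on both strands and not overlapping each other, which 4.52% and 34.6% of 35116 promoter windows hold. A match is a description of the letters only.

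None of these 3 windows shared a base with a region, which is usual, since only 0.313% of 35116 promoter windows did. Likeness over the gene bodies was not measured. Of the 5 genes, 2 shared at least 1 bp with a region, FRG1 and FRG2C, against 10.5% of all protein-coding genes. FRG2C was covered over 65.4% of its 2846 bp (chr3:75664328-75667173). FRG1 was covered over 5.34% of its 22321 bp (chr4:189940872-189963192). DUX4 (chr4:190173774-190185911), FRG2 (chr4:190024367-190027256) and FRG2B (chr10:133623895-133626795) shared no base with any region. FRG2C alone had at least 10% of its body covered, which held for 2.41% of protein-coding genes. Because the list pools its samples, none of these values has a spread between replicates, and no test was made. How reads that match several copies were handled is not given in the sources used here. A gene without a region in this list is therefore not shown to lack H3K9me3, and a region in a repeated sequence may hold reads from other copies; neither was tested.

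All 5 genes had a region within 200 kb of their bodies, as did 62.2% of protein-coding genes. They differed in how much of that window was covered. The window of FRG2C was covered over 27.4% by 5 regions, that of FRG1 over 18.8% by 11 regions and that of FRG2 over 15.6% by 9 regions. The windows of DUX4 and FRG2B were covered over 4.50% by 3 regions and over 4.45% by 4 regions. Over all protein-coding genes the median window was covered over 0.683%, the 95th percentile was 4.63% and the 99th was 15.5%. FRG2C thus ranked 40 of 19884, FRG1 147 and FRG2 195, all above the 99th percentile, while DUX4 at rank 1035 and FRG2B at rank 1054 lay just below the 95th. The windows of DUX4, FRG1 and FRG2 overlap each other, so their values share regions. The DUX4 window reaches only 10.3 kb past the gene, to the last annotated gene of the chromosome, the FRG2 window 169 kb and the FRG2B window 152 kb. FRG2 passes the 99th percentile narrowly and in this shortened window of 372 kb, so its place above that percentile is not shown for a full window. Its coverage lay mostly on the FRG1 side, with 25.9% of the bases before FRG2 and 3.65% of those after it.

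**Figure D1:**
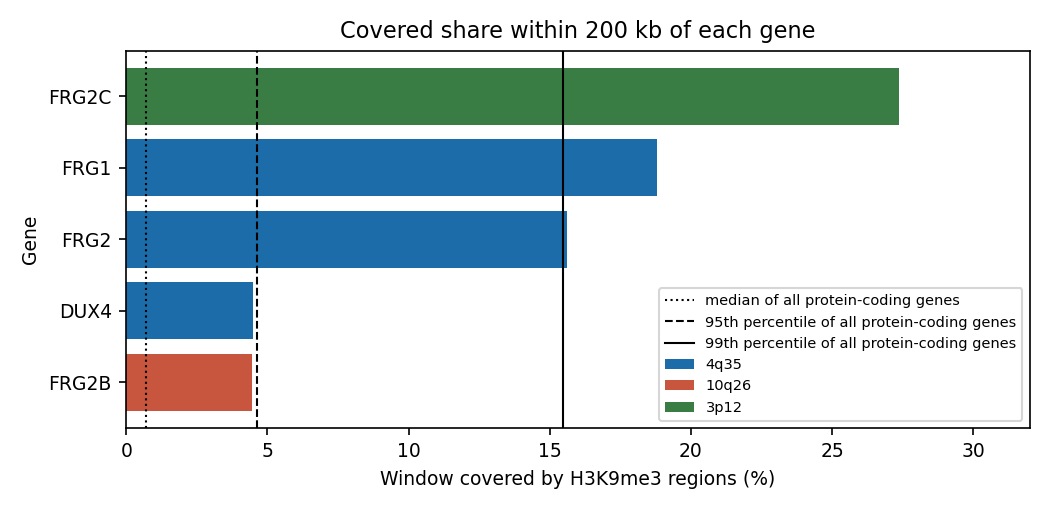
Share of the window from 200 kb before to 200 kb after each gene that H3K9me3 regions covered (x axis, percent), for the 5 genes (y axis) coloured by locus. Vertical lines give the median, 95th and 99th percentile over all protein-coding genes; FRG2C, FRG1 and FRG2 pass the 99th percentile of 15.5%, and DUX4 and FRG2B lie below the 95th of 4.63%. Each bar is 1 value from the pooled list, and the windows of DUX4, FRG2 and FRG2B are cut short at the chromosome end.

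FRG1 is the gene of the 4q35 group farthest from the telomere. Its gene body was marked at its ends and not in between. A region at chr4:189937149-189941023 covered the first 152 bp and the whole promoter window, and a region at chr4:189962152-189968658 covered the last 1041 bp. The 21.1 kb between them held no region. Their scores per base pair were 6.14 and 7.78, beside a median of 6.97 over 10490 unsplit regions on the chromosomes. The score is the whole number the authors deposited for each region, without a unit, and is divided here by region length. The first of these regions also covered the start of FRG1-DT, a long noncoding RNA gene that runs away from FRG1 in the opposite direction.

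A region over a gene start is rare in this list. Of the 5 promoter windows, 1 shared a base with a region, that of FRG1, against 0.313% of 35116 promoter windows. The FRG1 window was covered over all 300 bases. The DUX4 window was 61.2 kb from the nearest region, the FRG2 window 49.0 kb and the FRG2B window 51.8 kb. The FRG2C window was missed by 934 bp. The covered FRG1 window at chr4:189940622-189940921 and the DUX4 window at chr4:190173524-190173823 are shown, both on the plus strand of GRCh38.p14 from RefSeq. Both hold more CG dinucleotides, marked in capitals, than the median promoter window.
FRG1: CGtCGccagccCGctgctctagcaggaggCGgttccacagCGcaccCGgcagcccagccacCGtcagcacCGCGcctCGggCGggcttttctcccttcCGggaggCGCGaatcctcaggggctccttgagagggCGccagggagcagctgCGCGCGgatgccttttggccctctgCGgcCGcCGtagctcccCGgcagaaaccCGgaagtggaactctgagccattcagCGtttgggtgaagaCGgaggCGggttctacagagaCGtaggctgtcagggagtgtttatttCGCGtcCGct
DUX4: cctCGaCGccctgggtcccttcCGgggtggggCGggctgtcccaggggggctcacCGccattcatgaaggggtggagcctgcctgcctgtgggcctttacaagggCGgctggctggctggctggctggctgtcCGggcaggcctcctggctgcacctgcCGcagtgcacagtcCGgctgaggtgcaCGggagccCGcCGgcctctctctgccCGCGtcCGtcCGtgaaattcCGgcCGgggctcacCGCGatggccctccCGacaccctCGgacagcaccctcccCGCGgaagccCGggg
The FRG1 window holds 30 CG dinucleotides and the DUX4 window 25, beside a median of 14 over all promoter windows. These counts lie at percentiles 77.6 and 68.0 of all promoter windows, so neither is unusual. The FRG2 and FRG2B windows hold 9 each and the FRG2C window 8.

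On the centromeric side of FRG1 the mark filled a long domain. From chr4:189522054 to chr4:189763505, a span of 241 kb, 8 regions covered 94.6% of the bases. The longest of them were 83.1 kb and 67.3 kb, ranks 8 and 16 of the 10490 regions by length. Scores per base pair in the domain ran from 4.55 to 11.6, with 10.9 over its summed length. The domain ended 177 kb before FRG1 and held no protein-coding gene, only the noncoding genes LINC01262, LOC105377615 and LOC105377616 and the small nuclear RNA pseudogene RNU1-51P. The 4q35 window of 500 kb around the genes was covered over 37.9%, against 17.4% for the window of 200 kb, because most of this domain lies beyond 200 kb from FRG1.

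Between this domain and FRG1 the mark came back in pieces over FRG1-DT. FRG1-DT was covered over 22.6% of its 176343 bp by 5 regions, among lncRNA genes of which 8.14% shared a base with a region. The densest of them, at chr4:189916684-189925898, had 14.3 score units per base pair, rank 279 in the list. LINC01596, which lies inside FRG1-DT, was covered over 100%. Just past FRG1, a region at chr4:189972337-189975376 covered the pseudogene MLLT10P2 over its full length, and the beta-tubulin pseudogene TUBB7P lay 4168 bp from the nearest region without sharing a base.

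Toward the telomere the coverage was uneven. In steps of 50 kb before the DUX4 start, 100% of the bases were covered between 500 and 450 kb and 75.7% between 450 and 400 kb, and then none between 400 and 300 kb. Coverage was 68.2% between 300 and 250 kb, 27.9% between 250 and 200 kb and 7.71% between 200 and 150 kb. The last 150 kb before DUX4 held coverage only between 100 and 50 kb, at 12.3%. FRG2 sits in a stretch of 128 kb without a region, 46.2 kb from the region before it and 78.9 kb from the region after it. The same stretch holds DUX4L9, a D4Z4-like copy beside FRG2, the noncoding D4Z4-binding-element transcript DBET, and the 8 repeat units from DUX4L8 to DUX4L2. The last region of the chromosome, at chr4:190106128-190112288, began 13.8 kb after DUX4L2 and ended 61.5 kb before DUX4. It covered 82.1% of the noncoding gene LOC107986338, at 7.11 score units per base pair, close to the list median. No region followed DUX4. In the whole span from DUX4L8 to the end of DUX4, 118 kb, this 1 region covered 5.22% of the bases. Assembly gaps were not taken out of these spans and distances, so any bases without sequence count as uncovered.

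**Figure D2:**
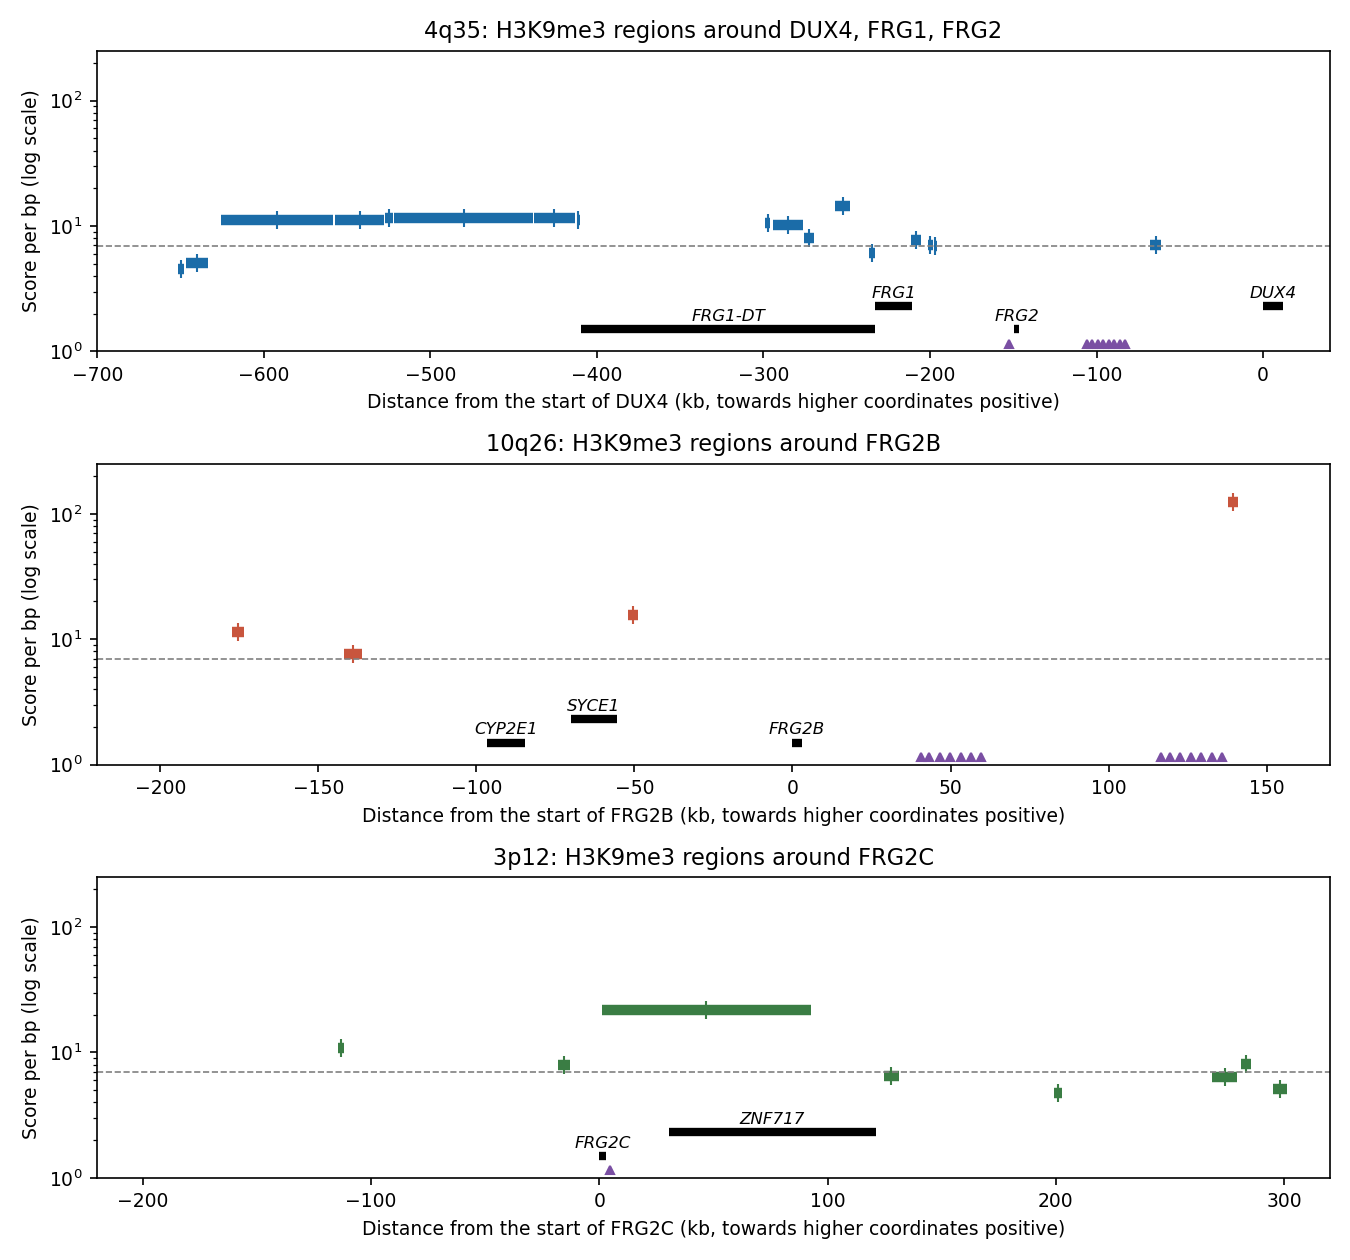
H3K9me3 regions (coloured bars, drawn to length, with a tick at the middle) at 4q35, 10q26 and 3p12, by distance in kb from the start of DUX4, FRG2B or FRG2C (x axis) and score per base pair (y axis, log scale). Black bars are named genes, purple triangles the starts of DUX4-like copies, and the dashed line the list median of 6.97; the 4q35 domain of 241 kb ends before FRG1-DT, and the 91.5 kb region at 3p12 begins inside FRG2C.

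Chromosome 4 had the most covered of the chromosome ends compared. The last 1 Mb of chromosome 4, up to its last annotated gene, was covered over 29.4% by 18 regions, the highest value among the corresponding ends of 24 chromosomes. Most of this coverage, 228 kb, lay in the domain of 241 kb that ended 177 kb before FRG1. The span from DUX4L8 to DUX4 was covered over only 5.22%. The next was chromosome 19 with 15%, and the median of the 24 was 2.38%. Chromosome 10, whose end carries the other array, had 2.10% and ranked 13. Farther from the end on 4q35, SLC25A4, an ADP/ATP carrier of mitochondria, PDLIM3, MTNR1A, ZFP42, TRIML1 and TRIML2 shared no base with one. The cadherin gene FAT1 was covered over 1.57% and SORBS2 over 0.824%. Of the 11 genes listed for 4q35, 3 (27.3%) shared a base with a region, and only FRG1-DT had at least 10% covered. Over all genes the share was 10.5% of protein-coding genes, 8.14% of lncRNA genes and 2.67% of pseudogenes. The 3 are the longest genes of the list. A longer gene shares a base more easily, and these shares were not matched for length.

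At 10q26 the array is a close relative of the 4q35 one, and the units have the same spacing: the median distance between starts of neighbouring DUX4-like copies was 3299 bp at 10q26 and 3296 bp at 4q35. No DUX4-like copy of either array shared a base with a region. The windows of FRG2B and DUX4 were covered over 4.45% and 4.50%. The joint 4q35 window of 200 kb, which also takes in FRG1 and FRG2, was covered over 17.4%. Within 200 kb of FRG2B there were 4 regions covering 15.8 kb, and none of the 30 annotated genes in the window shared a base with one. Most of the 30 are pseudogenes, and 5 are protein-coding. Over all genes only 2.67% of pseudogenes, 10.5% of protein-coding genes and 8.14% of lncRNA genes shared a base, so a count of 0 is not particular to this window. The nearest region to FRG2B, at chr10:133571821-133574914, lay 49.0 kb away, between SYCE1, a meiotic synaptonemal complex gene, and FRG2B. Its score per base pair was 15.5. The regions at chr10:133446468-133450421 and chr10:133482132-133487657 had 11.5 and 7.58.

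The fourth region at 10q26 stood apart. It spanned chr10:133761753-133764962, only 3210 bp, and began 617 bp after the end of DUX4L15, the last repeat unit. Its score per base pair was 124, rank 33 of 10490 regions and 17.8-fold above the list median. At this end of the 4q35 array, which closes with DUX4, no region was listed. The 14 DUX4-like copies of 10q26 fall into 2 clusters of 7 with 55.4 kb between them, and no region was listed in the 96.7 kb from the first copy to the last. Assembly gaps were not taken out of this span either, so it is not shown to be free of the mark. Whether reads from other copies add to the region after DUX4L15 was not tested.

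At 3p12 a long region covered most of FRG2C but not its start. The region at chr3:75665312-75756839 began inside the gene, 984 bp after its start, and ran 89.7 kb past its end. At 91.5 kb it was the rank 4 region by length, with 21.8 score units per base pair (rank 125), 3.13-fold above the list median. It covered DUX4L26, the single D4Z4-like copy beside FRG2C, over 100%, the noncoding gene LINC00960 over 100%, the pseudogene RN7SL92P and the microRNA gene MIR4273 over 100%, and the zinc finger gene ZNF717 over 68.4%. The other 4 regions within 200 kb were short, 2.70 to 6.93 kb, with 4.74 to 10.9 score units per base pair. The coverage was one-sided: 4.05% of the 200 kb before FRG2C and 50.2% of the 200 kb after it. Without regions above 20 score units per base pair, FRG2C fell to 0% covered and its window to 4.66%, so these 2 values rest on 1 region.

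**Figure D3:**
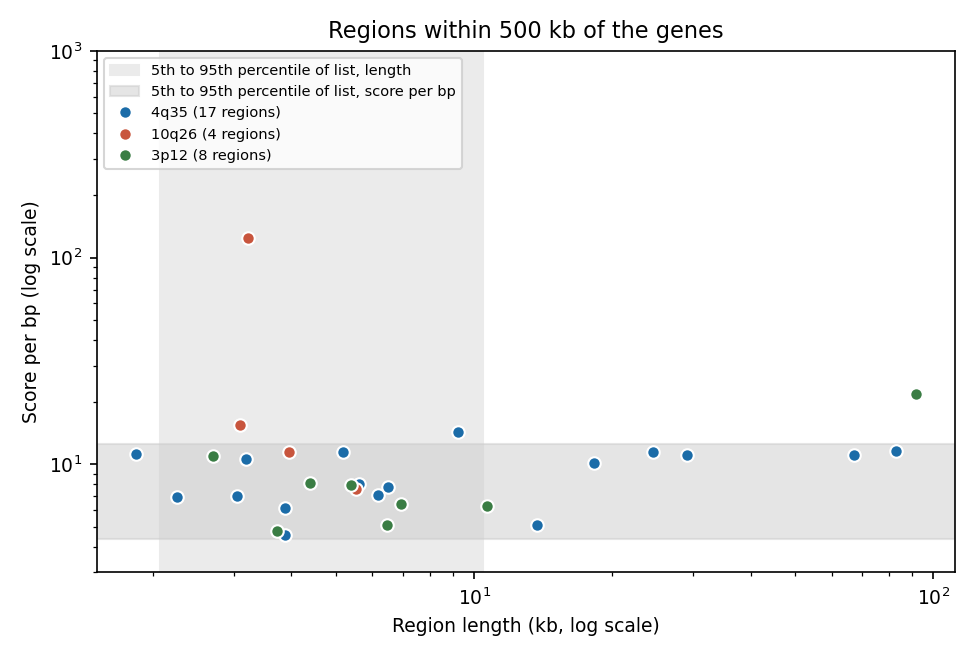
Length (x axis, kb, log scale) against score per base pair (y axis, log scale) of the 29 regions within 500 kb of the genes, coloured by locus, over grey bands for the 5th to 95th percentile of the list (length 2.07 to 10.4 kb, score per base pair 4.36 to 12.5). The 10q26 region after DUX4L15 is short with 124 score units per base pair, and the FRG2C region is the longest at 91.5 kb.

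The annotation also lists D4Z4-like copies outside the 4q35 and 10q26 arrays, and the copies in and outside them were counted together first. Of 51 DUX4-like copies on the chromosomes, 10 shared a base with a region (19.6%), against 2.67% of 16712 pseudogenes, and all 10 were covered over their full length. With at least 10% of the body covered the pseudogene share was 2.42%. None of the 23 copies at 4q35 and 10q26 was among them, which allows a share of up to 13.0% by counting error only, a limit above the pseudogene share. The limit treats the 23 as independent, but they lie in tandem arrays, so it is too tight. Of the 28 copies elsewhere, which include DUX4L26 at 3p12, 10 were covered (35.7%). The others, on chromosomes 5, 12, 14, 20 and 22, were not. The difference between the arrays and the copies elsewhere was not tested. These copies share regions and are not independent: 5 regions held all 10 of them. On chromosome Y, 5 of 5 copies were covered, DUX4L16 to DUX4L19 by 1 region of 46.2 kb with 203 score units per base pair and DUX4L31 by a region of 4.22 kb. On chromosome 16, 3 of 3 (DUX4L45, DUX4L46 and DUX4L47) lay in 1 region of 47.7 kb with 46.3 score units per base pair. The others were DUX4L26 beside FRG2C and DUX4L50 on chromosome 9, in a region of 23.5 kb with 19.0. On chromosomes 20 and 22, 0 of 8 and 0 of 5 were covered. Without regions above 20 score units per base pair, 2 of the 51 copies remained covered.

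Relatives of the FRG genes elsewhere were also counted. Of 9 FRG1 pseudogenes, 2 (22.2%) shared a base with a region, against 2.67% of all pseudogenes. These were FRG1BP on chromosome 20, covered over 90.4% of its 42680 bp by 3 regions, and FRG1JP on chromosome 9, covered over 31.5%. The 9 are 5754 to 46843 bp long. A longer gene shares a base more easily, and the 2 shares were not matched for length. FRG1JP lies in the same stretch of chromosome 9 as DUX4L50. None of the 10 FRG2 relatives, 6 of them on chromosome 16, shared a base with a region. This allows a share of up to 30% by counting error only and cannot be told from the 2.67% of all pseudogenes. The limit treats the relatives as independent and is too tight where neighbouring ones go together. Their distances to the nearest region ran from 8927 bp for FRG2KP to 768 kb for FRG2EP.

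**Figure D4:**
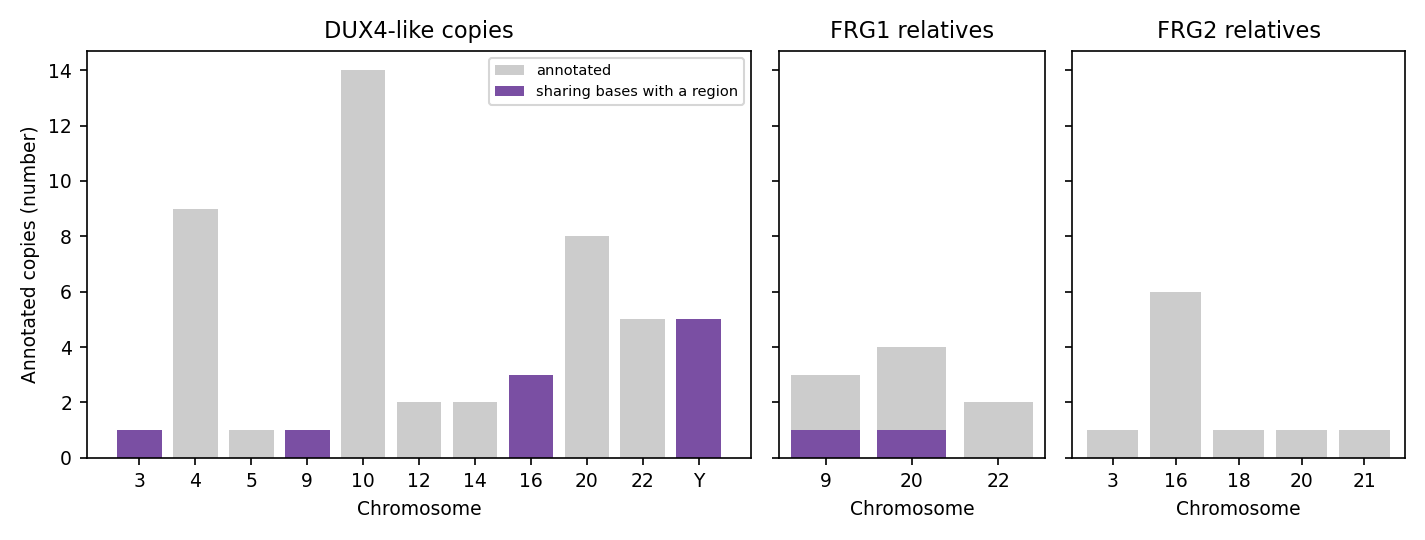
Number of annotated DUX4-like copies, FRG1 relatives and FRG2 relatives by chromosome (grey bars) and the number that shares at least 1 bp with an H3K9me3 region (purple). All copies on chromosomes 3, 9, 16 and Y are covered among the DUX4-like genes, and none of the 9 on chromosome 4 or the 14 on chromosome 10.

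Genes known to rise when DUX4 is expressed carried no region. Of 26 such targets, 0 shared a base with one, which allows a share of up to 11.5% by counting error only, against 10.5% of protein-coding genes. Their median window of 200 kb was covered over 0.819%, near the 0.683% of all genes. Some lay close to marked sequence: TRIM48 on chromosome 11 was 1974 bp from a region, in a window covered over 40.7%. ZSCAN4, a zinc finger gene of the cleavage-stage embryo, was 5671 bp from one, in a window covered over 11.1%. Other close targets had less covered windows. ZNF280A was 2230 bp from a region, in a window covered over 0.611%. PRAMEF1 was 4198 bp and PRAMEF12 5198 bp from one, in windows covered over 3.71% and 3.72%. MBD3L2, MBD3L3 and MBD3L5, relatives of a methyl-CpG-binding protein in 1 cluster of chromosome 19, had windows covered over 8.43% to 8.44%. These 3 and the PRAMEF genes lie in clusters and share regions, so the limit of 11.5%, which treats all targets as independent, is too tight.

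Genes for chromatin proteins that act at D4Z4 or on H3K9me3 were near the background. Of 16, 2 shared a base with a region (12.5%), and neither had at least 10% covered. SETDB1, an H3K9 methyltransferase, was covered over 4.85% by 1 region, and ATF7IP, its partner protein, over 5.75% by 2 regions. SMCHD1, the D4Z4 repressor that is mutated in a form of the dystrophy, shared no base with a region and was 4109 bp from the nearest. DNMT3B, LRIF1, SUV39H1, TRIM28 and CBX3 shared none either.

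The genes outside chromosomes 3, 4 and 10 whose windows were covered most like those of the members were picked by the smallest difference in covered share in this 1 list. For FRG2C (27.4%) these were ZNF568 (27.5%, 13 regions) and ZNF790 (27.0%, 12 regions) in the zinc finger clusters of chromosome 19, whereas FRG2C reached its share with 5 regions. For DUX4 (4.50%) they were MYCN (4.50%) and CFAP107 (4.51%), and for FRG2B (4.45%) AADACL4 (4.45%) and MTHFS (4.45%).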

How the data were processed

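H3K9me3 CUT&RUN was done in 3 BJ samples after ERH siRNA, per the labels. The submitters' processing notes name Bowtie2 2.3.4.1, SAMtools 1.16.1, R 3.6.3, deepTools 3.5.0, bedtools 2.27.1, SEACR 1.3 and build hg38, without roles. The authors deposited 1 merged list with 6 columns and no header. Its score, deposited without a unit, was used only to describe and rank regions. Its other column, a running number above 1 in 17 rows, marks rows that repeat a score; no such row lay within 500 kb of a gene described here. Sequencing depth is unknown.

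Genes came from RefSeq GRCh38.p14, keeping the 59096 of 59792 placed on chromosomes 1 to 22, X and Y. Exons, introns and UTRs were not assigned, as the table gives gene bodies only. Windows ended at the last gene or region of a chromosome. Assembly gaps were not taken out, so any bases without sequence count as uncovered. Starts are 1-based. Ranks and percentiles are over all protein-coding genes or regions and are not tests. Python 3.11.15, numpy 2.4.6, pandas 2.3.3, biopython 1.88 and matplotlib 3.10.9 were used. The overlap arithmetic was checked on 500 sets of simulated regions by counting single bases, with 0 differences.

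The members and lists were chosen with earlier results of these data known. Named genes were the members, genes overlapping a region within 200 kb, covered relatives and listed genes, the 4q35 genes and the 2 most alike genes per locus; uncovered listed genes were named after their values were seen. The alternatives were a minimum length of 2 kb, joining within 5 kb, scores at or above the median, no split rows, no region above 20 score units per base pair, at least 10% covered, and windows of 100 and 500 kb.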

Additional observations from a re-analysis of the deposited data

How the results depend on the processing

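Over 6 counts and 8 covered shares, 83 values were computed under alternatives, and 30 of the 37 counts stayed within 1.5 times the main count. Those 30 include the counts of DUX4 targets, which were 0 and could rise only where regions were joined. They also include the counts of members and of regions within 200 kb without split rows. These could not move, as no split row lay within 500 kb of a member. The shares are given by value only, since bases of 1 region are not independent and no interval over bases measures their stability. Dropping every region with more than 20 score units per base pair reduced the genes with a region from 2 to 1 and the covered DUX4-like copies from 10 to 2, since the regions dropped hold FRG2C and the copies on chromosomes 3 and 16 and 4 of those on Y. Requiring at least 10% of the body gave 1 gene, FRG2C, and 0 chromatin genes in place of 2. A minimum length of 2 kb, or scores at or above the median, gave 1 chromatin gene. A window of 100 kb held 12 regions in place of 20. DUX4, FRG2 and FRG2B stayed at 0% covered, and the DUX4 targets at 0 of 26, under each alternative run. The covered share at 10q26 was 1.52% within 100 kb and 2.41% within 500 kb, and at 3p12 47.8% and 13.1%.

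No paired analysis was possible because the list pools the 3 replicates and holds 1 group; leaving out a replicate was not possible for the same reason. Depth is unknown, so the list cannot tell a repeat without H3K9me3 from one without assigned reads.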
